A study of Mus musculus with 18 samples.

Results

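The genes of collagen export were followed through the day in dermal fibroblasts, with the immune cells of the same mice as the contrast. They are 9 genes of the 32285 features counted, taken by name: Sec61a1 and Sec61a2 for entry into the endoplasmic reticulum (ER), Serpinh1 for folding, Sar1b, Sec23a, Sec24d and Mia3 for export in COPII coats, Vps33b for a step after the Golgi, and Pde4d, a phosphodiesterase of cyclic AMP. Each name was found once in the files. Single cells were obtained from the dorsal dermis of 18 wild-type male C57BL/6J mice, with no mutant or treated group. The mice were kept under a cycle of 12 h light and 12 h dark, were in telogen (the resting phase of the hair cycle), and gave 1 library each. There were 3 mice at each of zeitgeber times ZT2, ZT6, ZT10, ZT14, ZT18 and ZT22 (hours after lights on), and replicate numbers 1, 2 and 3 were days 1, 2 and 3 of collection. Skin was digested with collagenase at 37 °C for 1.5 h and live cells were sorted before the 10x 3′ libraries were made, so each level includes whatever changed in the RNA during digestion.

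Collagen chains enter the ER through the Sec61 channel, whose pore is the Sec61 alpha subunit. Inside, the chaperone HSP47, encoded by Serpinh1, binds the folded procollagen triple helix, and carriers coated by COPII then take procollagen to the Golgi. The GTPase Sar1 starts the coat, Sec23 and Sec24 form its inner layer, Sec24 picks the cargo, and TANGO1, encoded by Mia3, holds procollagen at the exit site while a large carrier forms. Vps33b acts with Vipas39 in sorting after the Golgi, and its loss is known to disturb the modification of collagen by lysyl hydroxylase. In dermis the fibroblast is the main source of collagen, while macrophages and lymphocytes secrete other proteins through the same core machinery.

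Of the 9 genes, 7 had a promoter window in the RefSeq table of build GRCm38.p6, from 250 bases before to 50 bases after the transcript start that the table uses. For 6 of the 7 this start lay within 41 bases of the first base of the gene in the GENCODE annotation, and for Pde4d it was a later start, 204229 bases inside the gene. TGACGTG, the core of the unfolded protein response element, was searched on both strands because Sec23a is a known target of the ER stress factor Creb3l2, which is related to factors that bind this element. It lay in the windows of Mia3, Sec24d and Sec23a and in 2.01% of all 32851 windows. The 3 sites are shown because they fall in 3 of the 4 COPII genes among the 9. Each is given with 25 bases before and 15 bases after the TGACGTG, which is in capitals, on the strand of the gene. They lie at chr1:183369630-183369676 on the minus strand for Mia3, chr3:123267445-123267491 on the plus strand for Sec24d, and chr12:59011990-59012036 on the minus strand for Sec23a.
Mia3: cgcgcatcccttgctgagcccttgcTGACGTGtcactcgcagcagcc
Sec24d: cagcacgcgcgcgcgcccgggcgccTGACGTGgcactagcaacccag
Sec23a: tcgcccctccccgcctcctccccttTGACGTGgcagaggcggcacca
The first base of the motif stood 86 bases before the RefSeq start in Mia3 and 26 bases before it in Sec24d, and was base 7 of the transcript in Sec23a. The gene of Sec24d starts 41 bases earlier in GENCODE, so that the motif lies inside it, from base 16. The 3 windows were rich in G and C, at 72% for Mia3 and Sec24d and 64.7% for Sec23a, against a median of 52.7% over all windows. Among all 9779 genes that were tested in fibroblasts and had a window, 44 of the 332 with the motif (13.3%) were rhythmic, against 15.1% of all 9779. The motif was in 3.40% of the 9779 and in 8 of 88 other pathway genes (9.09%). Of 18 further COPII and exit site genes with a window, only 1, Cul3, held it.

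Other motifs were searched in the same 7 windows on both strands. None of the 7 held the E-box CACGTG (7.15% of all windows), the D-box TTATGTAA (0.938%), the nuclear receptor site AGGTCA (16.3%), the cyclic AMP response element TGACGTCA (1.79%), the ER stress response element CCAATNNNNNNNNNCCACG (0.119%) or the heat shock element (0.603%). TGACGTG shares ACGTG with the E-box and TGACGT with the cyclic AMP response element, but neither of those longer motifs was complete in these windows. The CCAAT box, which is found in 37.4% of all windows, was in those of Mia3, Sar1b and Sec24d.

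Between 4850221 and 40827442 UMIs (unique molecular identifiers, 1 per captured transcript) were counted per library. After the study's cell filter, 16877 cells were left, of which 12039 were in fibroblast-like clusters and 3136 in immune-like clusters. For each library the UMIs of a cell type were added up, and a level is given as UMIs of the gene per 10000 UMIs of that sum. The fibroblast sums held 2881936 to 33171061 UMIs from 105 to 1539 cells, and the immune sums 481549 to 5736914 UMIs from 31 to 434 cells. All 6 fibroblast markers and all 7 immune markers were detected in their own cells. The summed immune markers were between 0.0174 and 0.108 per 10000 in fibroblasts, against 55.3 to 79.5 in immune cells. The fibroblast markers summed to 2.67 to 58.7 in immune cells, highest in ZT22 replicate 3, against 636 to 1118 in fibroblasts. The source of these fibroblast UMIs in the immune sums was not tested. Clusters led by Mcpt4 and Cma1 (54 cells), S100a9 and S100a8 (148 cells) and Igkc and Jchain (38 cells) carried 5 to 7 immune markers but stayed unnamed for their low UMI counts, and are not in the immune sums.

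The first question was which of the 9 genes changed over the day in fibroblasts. Sec23a and Sec24d, the 2 coat subunits that form the inner COPII layer together, were rhythmic, both with a fitted peak in the first hours after lights on. The other 7 did not pass. With edgeR (quasi-likelihood test of a cosine of 24 h, Benjamini-Hochberg adjustment), 1897 of 12759 genes (14.9%) had an adjusted p under 0.05, and the share of the 9 genes, 2 of 9, is read against that background. All 9 passed the filter on low counts. In simulated data the edgeR test recovered 51 of 100 fibroblast genes with a log2 amplitude of 0.3, and 89 of 100 at 0.6. A small rhythm could thus be missed among the 7 that did not pass. JTK_Cycle, the test used in the study, gave the same 2 genes at an unadjusted p under 0.05. There it called 9.27% of the 22075 genes with a UMI in fibroblasts, a wider set than the one edgeR tested.

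**Figure D1:**
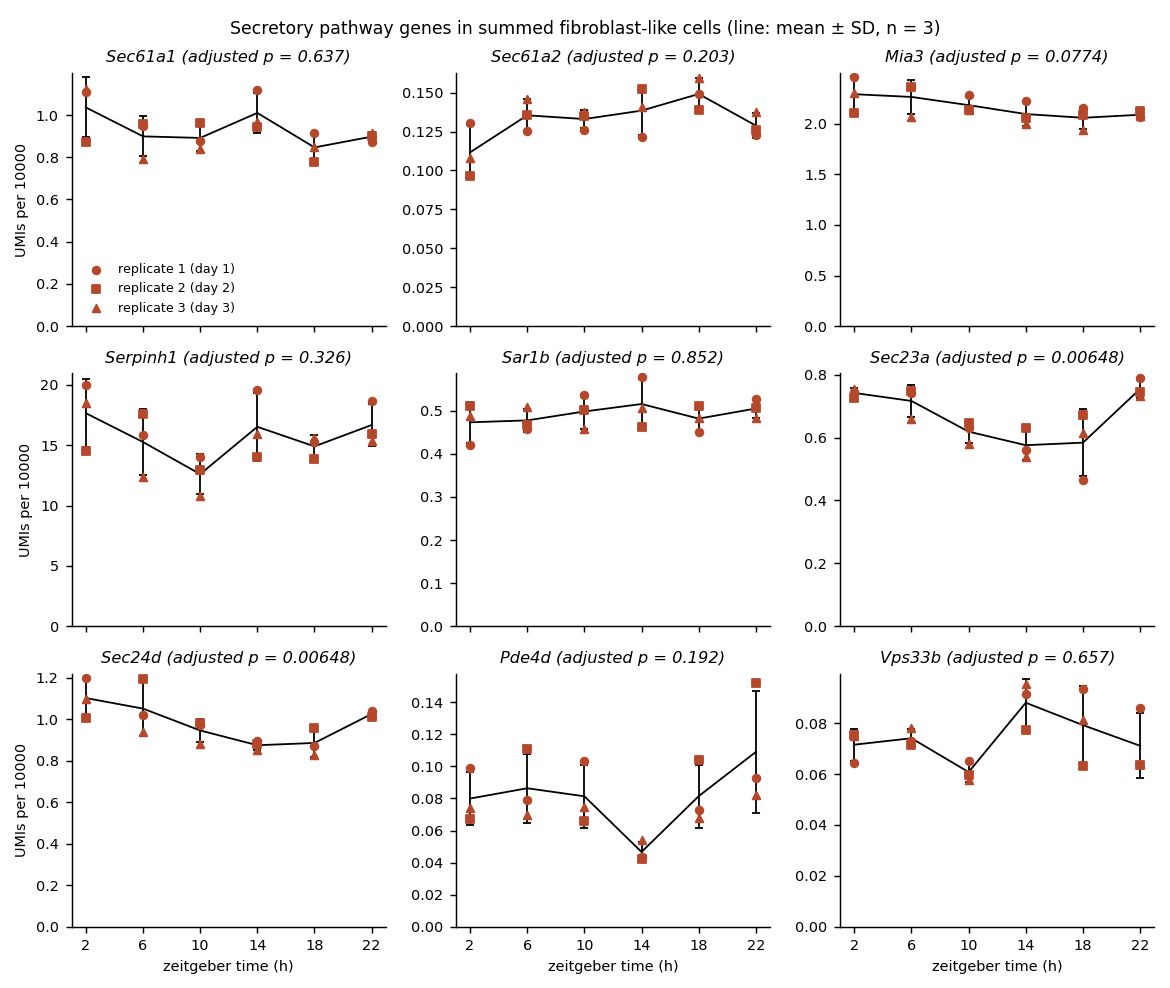
UMIs per 10000 UMIs of the summed fibroblast-like cells (y axis, from 0) against zeitgeber time in hours (x axis) for the 9 genes; points are libraries, marked by replicate and day, and the line with bars is the mean ± SD of 3. Sec23a and Sec24d are low at ZT14 and high from ZT22 to ZT6, and Serpinh1 spreads widely within most times, least at ZT18.

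Sec23a (ENSMUSG00000020986, chromosome 12, 58958383 to 59012017, minus strand, GRCm38) encodes the coat subunit that activates the Sar1 GTPase. Its level in the fibroblasts of replicates 1, 2 and 3 was 0.746, 0.725 and 0.755 at ZT2, 0.743, 0.748 and 0.659 at ZT6, and 0.631, 0.646 and 0.580 at ZT10. It was 0.560, 0.630 and 0.537 at ZT14, 0.465, 0.673 and 0.614 at ZT18, and 0.788, 0.745 and 0.731 at ZT22. All libraries of ZT22 were above all libraries of ZT14. These 2 times were picked as the highest and lowest. Between their own highest and lowest times, Serpinh1, Sec61a2, Pde4d and Vps33b, which did not pass, had no overlap either. The share of all genes without such overlap is not given. The mean was 0.755 ± 0.0296 at ZT22 and 0.576 ± 0.0486 at ZT14 (SD, n = 3), a ratio of 1.31. The fitted amplitude was 0.23 ± 0.04 on the log2 scale (jackknife SE, n = 18 libraries), 1.37-fold from trough to peak, with the peak at ZT2.31 ± 0.870 h and an edgeR adjusted p of 0.00648. Within a time the libraries varied by 8.38%, against a counting error of 4.04%.

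Sec24d (ENSMUSG00000039234, chromosome 3, 123267455 to 123365641, plus strand) encodes a cargo-binding subunit that is needed for collagen export in vertebrates. Its level was 1.202, 1.01 and 1.10 at ZT2, 1.02, 1.196 and 0.938 at ZT6, and 0.974, 0.983 and 0.883 at ZT10. It was 0.894, 0.879 and 0.853 at ZT14, 0.871, 0.959 and 0.829 at ZT18, and 1.04, 1.01 and 1.03 at ZT22. The libraries of ZT2 and ZT22 lay above all libraries of ZT14 and ZT18, times again picked after the levels were seen. The mean was 1.10 ± 0.0971 at ZT2 and 0.875 ± 0.0209 at ZT14, a ratio of 1.26. The amplitude was 0.19 ± 0.04 on the log2 scale, 1.31-fold from trough to peak, with the peak at ZT3.24 ± 0.768 h and an edgeR adjusted p of 0.00648.

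The make-up of the fibroblasts also changed over the day. The cluster led by Dmkn and Krtdap (2144 cells) was 29.4% ± 6.99 of the fibroblasts at ZT14 and 27.0% ± 2.92 at ZT18, against 11.1% ± 5.36 at ZT22 and 15.9% ± 3.83 at ZT2, so it was most frequent when Sec23a and Sec24d were low. Its own levels, 0.675 ± 0.125 for Sec23a and 0.940 ± 0.156 for Sec24d, lay inside the range of the other clusters. Without its cells, an alternative chosen after seeing the data, both genes passed (edgeR adjusted p = 0.00480 for Sec23a and 0.0215 for Sec24d) with amplitudes of 0.22 and 0.17 on the log2 scale. Other clusters changed too. The cluster led by Cxcl10, with Ier2 and Dnajb1 among its leading genes, was 23.6% ± 7.77 at ZT22 and 20.5% ± 10.6 at ZT2. It was 12.0% ± 3.79 at ZT6, 9.05% ± 4.73 at ZT14 and 13.4% ± 11.6 at ZT18. The fit without the Dmkn cluster still contained these other changes. The part of the make-up of the fibroblasts in the 2 rhythms was not tested.

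Both calls held in each of the 18 fits that left out a library, with adjusted p from 0.00361 to 0.0221 for Sec23a and from 0.00205 to 0.0214 for Sec24d by edgeR. Sec23a did not pass in the largest fibroblast cluster alone (edgeR adjusted p = 0.0673, amplitude 0.17), where Sec24d did (0.0144). Sec24d did not pass when the 6 times were fitted as a factor instead of a cosine (0.0624), where Sec23a did (0.0335). Day by day, Sec23a was lowest at ZT18 on day 1 and at ZT14 on days 2 and 3, and Sec24d was lowest at ZT18 on days 1 and 3 and at ZT14 on day 2.

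**Figure D2:**
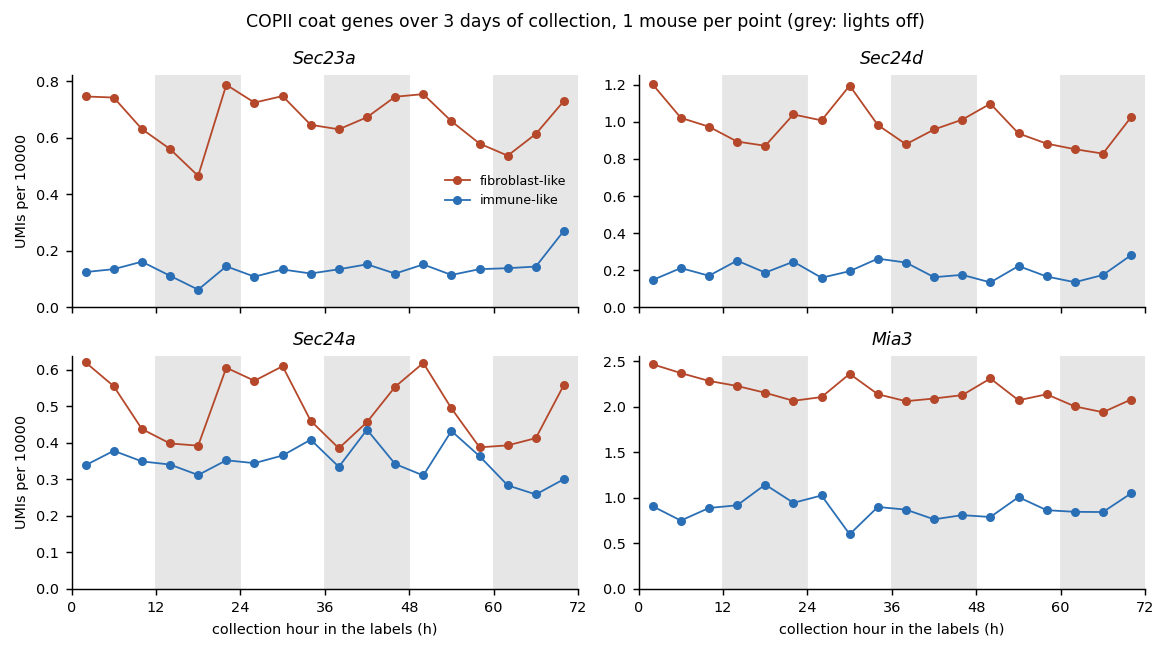
UMIs per 10000 (y axis, from 0) against the collection hour given in the labels (x axis, hours) for Sec23a, Sec24d, Sec24a and Mia3 in fibroblast-like (red) and immune-like (blue) cells, 1 mouse per point, with the dark phases in grey. In fibroblasts the 2 called genes and Sec24a fall toward each dark phase and are higher again by ZT22 or ZT2 of each day, while the immune levels of Sec23a and Sec24d are at most 0.281.

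Mia3 (ENSMUSG00000056050, chromosome 1, 183326725 to 183369553, minus strand) encodes TANGO1. Its fibroblast levels were between 1.94 and 2.46, with means of 2.29 ± 0.181 at ZT2 and 2.06 ± 0.110 at ZT18, and the 2 times overlapped. The amplitude was 0.11 ± 0.04 on the log2 scale with the peak at ZT5.40 ± 1.01 h, and the edgeR adjusted p was 0.0774. It was 0.0413 with the replicate number, which is the day of collection, as a block, 0.0251 by DESeq2 and 0.0261 without ZT6 replicate 3. Mia3 was thus near the threshold and on either side of it, depending on the fit.

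Sar1b (ENSMUSG00000020386, chromosome 11, 51763687 to 51791925, plus strand), the GTPase that starts the coat, was at 0.420 to 0.578 in fibroblasts and had the smallest fitted amplitude of the 9 genes, 0.03 ± 0.04 on the log2 scale (edgeR adjusted p = 0.852). Its highest and lowest times, ZT14 at 0.515 ± 0.0586 and ZT2 at 0.473 ± 0.0469, overlapped.

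The ER entry genes did not pass. Sec61a1 (ENSMUSG00000030082, chromosome 6, 88503579 to 88518905, minus strand) was at 0.776 to 1.12, with an amplitude of 0.06 ± 0.06 on the log2 scale and an edgeR adjusted p of 0.637. Sec61a2 (ENSMUSG00000025816, chromosome 2, 5870987 to 5895432, minus strand) was at 0.0962 to 0.159, with its highest mean, 0.149 ± 0.0101, at ZT18 and its lowest, 0.112 ± 0.0174, at ZT2. Its fitted peak, ZT14.1 ± 1.28 h, fell in the dark phase, and its edgeR adjusted p was 0.203 over all fibroblasts and 0.0435 in the largest fibroblast cluster alone. With 43 to 421 UMIs per library, counting alone gives Sec61a2 an error of 8.68%, close to the 8.97% by which its libraries varied within a time.

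Serpinh1 (ENSMUSG00000070436, chromosome 7, 99345376 to 99353239, minus strand) was at 19.97, 14.5 and 18.5 at ZT2, 15.9, 17.6 and 12.3 at ZT6, and 14.1, 12.99 and 10.8 at ZT10. It was at 19.6, 14.1 and 15.97 at ZT14, 15.3, 13.9 and 15.6 at ZT18, and 18.7, 15.96 and 15.4 at ZT22. The highest and lowest means were 17.7 ± 2.81 at ZT2 and 12.6 ± 1.68 at ZT10, and ZT6 and ZT14 to ZT22 overlapped each other. The 24 h cosine had an amplitude of 0.14 ± 0.08 on the log2 scale and an edgeR adjusted p of 0.326. Mice of the same time differed by 14.3%, and the counting error was 0.812%.

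Pde4d (ENSMUSG00000021699, chromosome 13, 108449948 to 109953461, plus strand) had 21 to 283 UMIs per fibroblast sum. It was lowest at ZT14, at 0.0436, 0.0423 and 0.0539, and highest at ZT22, at 0.0926, 0.152 and 0.0821. Its amplitude was large for the set but imprecise, 0.33 ± 0.18 on the log2 scale, with an edgeR adjusted p of 0.192. Vps33b (ENSMUSG00000030534, chromosome 7, 80269649 to 80291754, plus strand) was at 0.0577 to 0.0954, with an amplitude of 0.09 ± 0.06 and an edgeR adjusted p of 0.657. In the last 500 bases of its transcripts, 12.98% of the 31-base words also occur in other genes, mostly Tmco1 and Cacna2d4, and no such word was shared by the other 8 genes.

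**Figure D3:**
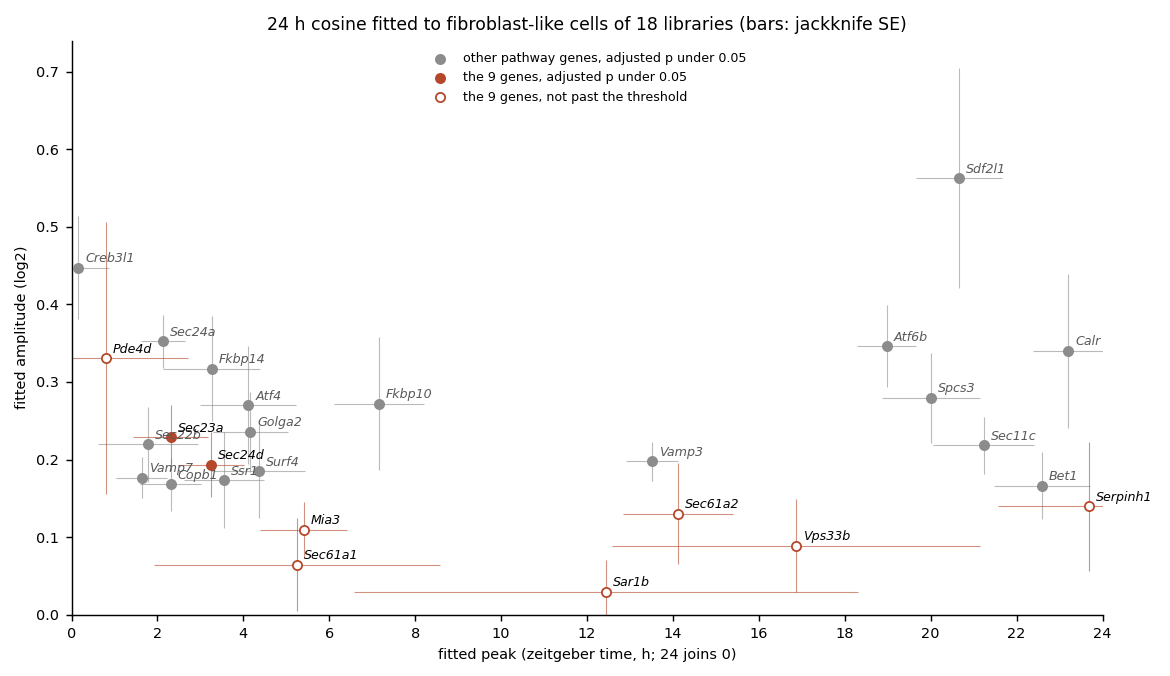
Fitted log2 amplitude (y axis, from 0) against fitted peak time in ZT hours (x axis, 24 joins 0) in fibroblasts, with jackknife SE bars. Filled red points are Sec23a and Sec24d, open red points the 7 genes that did not pass, and grey points the other pathway genes named, of which Sec24a, Copb1, Sec22b and Fkbp14 lie near Sec23a and Sec24d in time.

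The other genes of the pathway came from fixed lists, and 21 of 108 (19.4%) were rhythmic in fibroblasts, beside 14.9% of all genes. Of the 21, 12 peaked before ZT8, beside 649 of the 1897 rhythmic genes (34.2%). Without ZT6 replicate 2 the count was 13, and without ZT14 replicate 1 it was 34. JTK_Cycle called 16 of the 108 at an unadjusted p under 0.05, 10 of which edgeR also called. The median amplitude over the 108 was 0.12 on the log2 scale and that of all genes tested was 0.13.

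Among 20 further COPII and exit site genes, 2 were rhythmic. Sec24a, another cargo-binding subunit, had replicate levels of 0.620, 0.570 and 0.619 at ZT2 and of 0.398, 0.385 and 0.393 at ZT14. Its means were 0.603 ± 0.0287 and 0.392 ± 0.00661, a ratio of 1.54, and its peak at ZT2.13 ± 0.518 h was close to those of Sec23a and Sec24d (edgeR adjusted p = 2e-05). Surf4, a cargo receptor, peaked at ZT4.36 ± 1.07 h with an amplitude of 0.18 ± 0.06 (adjusted p = 0.0419). JTK_Cycle called Sec24a and not Surf4, whose edgeR call was kept in 7 of the 18 fits that left out a library. The paralogs Sec23b (adjusted p = 0.273), Sec24b (0.825), Sec24c (0.304) and Sar1a (0.108) did not pass by edgeR, and the differences between paralogs were not tested. 

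Of 16 genes of the vesicles between ER and Golgi, 5 were rhythmic. The COPI coat subunit Copb1 peaked at ZT2.31 ± 0.714 h and rose from 0.963 ± 0.0297 at ZT18 to 1.24 ± 0.0317 at ZT2. The SNARE protein gene Sec22b peaked at ZT1.78 ± 1.16 h and the Golgi tether gene Golga2 at ZT4.16 ± 0.876 h. JTK_Cycle called these 3 genes and Arf1. Bet1, another SNARE, peaked earlier, at ZT22.6 ± 1.11 h, was not called by JTK_Cycle, and its edgeR call was kept in 5 of the 18 fits that left out a library.

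Of 20 translocation genes, 3 were rhythmic, at different times. The signal peptidase subunits Spcs3 and Sec11c peaked in the dark phase, at ZT20 ± 1.14 h and ZT21.2 ± 1.17 h, with amplitudes of 0.28 ± 0.06 and 0.22 ± 0.04 on the log2 scale. Ssr1, a subunit of the translocon-associated complex, peaked at ZT3.55 ± 0.934 h with an edgeR adjusted p of 0.0487, and its call was kept in 2 of the 18 fits that left out a library. JTK_Cycle called none of these 3 but 3 others, Ssr2, Spcs1 and Srp9, at an unadjusted p under 0.05.

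Of 20 ER folding genes, 6 were rhythmic, the 4 with the smallest p being Calr, Fkbp14, Sdf2l1 and Fkbp10. The chaperone gene Calr was at 7.31 ± 0.714 at ZT2 and 3.75 ± 0.637 at ZT10, a ratio of 1.95 (edgeR adjusted p = 0.0110). Sdf2l1, a gene of the ER stress response, had the largest amplitude of the 4, 0.56 ± 0.14 on the log2 scale with a peak at ZT20.7 ± 1.01 h. Fkbp14, a prolyl isomerase that acts on procollagen, peaked at ZT3.26 ± 1.13 h, and Fkbp10, another such isomerase, at ZT7.15 ± 1.05 h. The call of Fkbp10 was kept in 11 of the 18 fits that left out a library, and of the 4 genes JTK_Cycle called Fkbp14 alone.

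Of 15 post-Golgi genes, 2 SNARE genes were rhythmic in opposite parts of the day. Vamp3 was at 0.566 ± 0.0110 at ZT14 and 0.400 ± 0.0116 at ZT2, and Vamp7 was at 0.457 ± 0.0216 at ZT2 and 0.358 ± 0.0204 at ZT18. The edgeR adjusted p was 0.000884 for Vamp3 and 0.00243 for Vamp7, and JTK_Cycle called both. Vipas39, the partner of Vps33b, did not pass (adjusted p = 0.501).

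Of 6 transcription factors of the secretory pathway, 3 were rhythmic. Creb3l1, a membrane-bound factor known to drive collagen genes, was at 2.40 ± 0.159 at ZT22 and 1.35 ± 0.206 at ZT14, a ratio of 1.78, with a peak at ZT0.157 ± 0.722 h (edgeR adjusted p = 0.000626). Atf6b peaked at ZT19.0 ± 0.686 h and Atf4 at ZT4.11 ± 1.12 h, and the call of Atf4, which JTK_Cycle did not call, was kept in 12 of the 18 fits that left out a library. None of the 8 cargo genes, collagen chains and Sparc, was rhythmic by edgeR, 0 had an unadjusted p under 0.05, and DESeq2 called 0. None of the 3 paralogs of Pde4d was called by edgeR, where 1 had an unadjusted p under 0.05, and DESeq2 called 2.

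Over the 18 fibroblast sums, log2 levels of Sec23a and Sec24d had a Pearson correlation of 0.824, and Sec24d and Mia3 of 0.794. These correlations, like those that follow, describe libraries that share the 24 h cycle, the depth and the same totals, and have no p. By this measure the genes most like Sec23a were Sec24a (0.902), Gstm4 (0.880) and Slc2a10 (0.870). Those most like Sec24d were Gask1b (0.934), Sec24a (0.911) and Sec23ip (0.909), and Sec23ip encodes a binding partner of Sec23. For Mia3 they were Slc38a10 (0.893), Tceal9 (0.889) and Aldh1l2 (0.886).

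For Serpinh1 the most alike genes were Golt1b (0.861), Copb2 (0.822) and Zc3h7a (0.818), 2 of which act in transport between ER and Golgi. For Sec61a1 they were Hdlbp (0.866), Cltc (0.836) and Sec31a (0.831), of which Sec31a forms the outer COPII layer. Sec61a2 was most like Bcl7a (0.799), Tsku (0.798) and Gm50012 (0.782), and Sar1b was most like Arpc3 (0.889), Cxcl1 (0.857) and Krtcap2 (0.819). Sec61a1 and Sec61a2 did not follow each other (-0.329).

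Genes that are induced when tissue is dissociated moved with the 2 rhythmic genes, but not with these alone. The correlation of Sec24d with the 8 dissociation genes was between 0.42, for Junb, and 0.75, for Egr1, and that of Sec23a between 0.44, for Fos, and 0.68, for Jun. For Pde4d, which did not pass, it was between 0.55, for Junb, and 0.73, for Jun. For Mia3 it was between 0.28, for Junb, and 0.61, for Atf3. The summed level of the 8 genes was lowest at ZT14, at 68.1 ± 7.95, and highest at ZT10, at 105 ± 7.85, while Sec24d at ZT10 was 0.947 ± 0.0555. None of the 8 was rhythmic by edgeR, 5 had an unadjusted p under 0.05, and DESeq2 called 0. Serpinh1 is inducible by heat in many cells, and its correlation with the 9 heat shock genes was between 0.07, for Hspb1, and 0.46, for Hspa8 and Dnajb1. That of Sar1b was higher, between 0.41, for Hsp90aa1 and Hspd1, and 0.64, for Hspe1. For the 2 rhythmic genes it went in both directions. That of Sec23a was between -0.40, for Hspd1, and 0.58, for Dnajb1. That of Sec24d was between -0.445, for Hspd1, and 0.53, for Hsp90aa1. The sum of the 9 heat shock genes was between 32.9 and 73.1 per library. The part of dissociation or heat in these results was not tested.

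In immune cells no rhythm was found for any of the 9 genes. By edgeR, 0 of 9 had an adjusted p under 0.05 and 1, Sec61a1, an unadjusted p under 0.05, while DESeq2 and JTK_Cycle called 0. Over all genes edgeR called 10 of 10643 (0.0940%), and JTK_Cycle, without the filter on low counts, called 2.43% of 19411. In simulated data the edgeR test recovered 3 of 100 immune genes with a log2 amplitude of 0.3, and 50 of 100 at 0.6. The fibroblast amplitudes of Sec23a and Sec24d were below 0.3, so a rhythm of that size would mostly be missed here. Sec61a1 was highest at ZT14, at 0.729, 0.645 and 0.653, and lowest at ZT6, at 0.571, 0.438 and 0.534, with a fitted peak at ZT14.6 ± 1.25 h (edgeR adjusted p = 0.608). Sec23a and Sec24d had medians of 29.5 and 40.5 UMIs per immune sum, and counting errors of 23.6% and 18.4% there against 4.04% and 3.23% in fibroblasts. When fibroblasts were thinned to the UMI totals of the immune cells, both still passed (edgeR adjusted p = 0.0237 for Sec23a and 0.0166 for Sec24d). Thinning matched the UMI totals alone, not the lower levels of these 2 genes or the smaller cell numbers of the immune sums. It therefore cannot tell whether a rhythm of these genes would be seen at their immune counts.

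An interaction term, fitted with libraries as blocks, asked whether the rhythm itself was different in fibroblasts and immune cells. By edgeR, 34 of 11431 genes (0.297%) passed and 0 of the 9, with 1 of 9 at an unadjusted p under 0.05 and 0 called by DESeq2. The edgeR adjusted p was 0.524 for Sec61a1, the smallest of the set, and 0.580 for Sec24d, the next one. A rhythm of Sec23a and Sec24d that is particular to fibroblasts was therefore not shown. In simulated data this test recovered 3 of 100 genes with a difference of 0.3 on the log2 scale, so a shared rhythm was not shown either.

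The second question was how far the machinery is specific to the collagen-making cell. In the same 18 libraries, 7 of the 9 genes were lower in immune cells than in fibroblasts, and Sar1b and Vps33b did not pass. By edgeR with the library as a block, 43.0% of 11431 genes were lower and 40.5% higher in immune cells, so either direction is common. The 9 genes had not been used to cluster the cells. The size of the difference ran from 1.43-fold for Pde4d to 5.15-fold for Sec24d, apart from Serpinh1, which was fitted at 50.2-fold. When the 3 unnamed clusters with immune markers were added to the immune sums, an alternative chosen after seeing the data, 6 of the 9 genes were lower, and Pde4d was no longer among them.

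**Figure D4:**
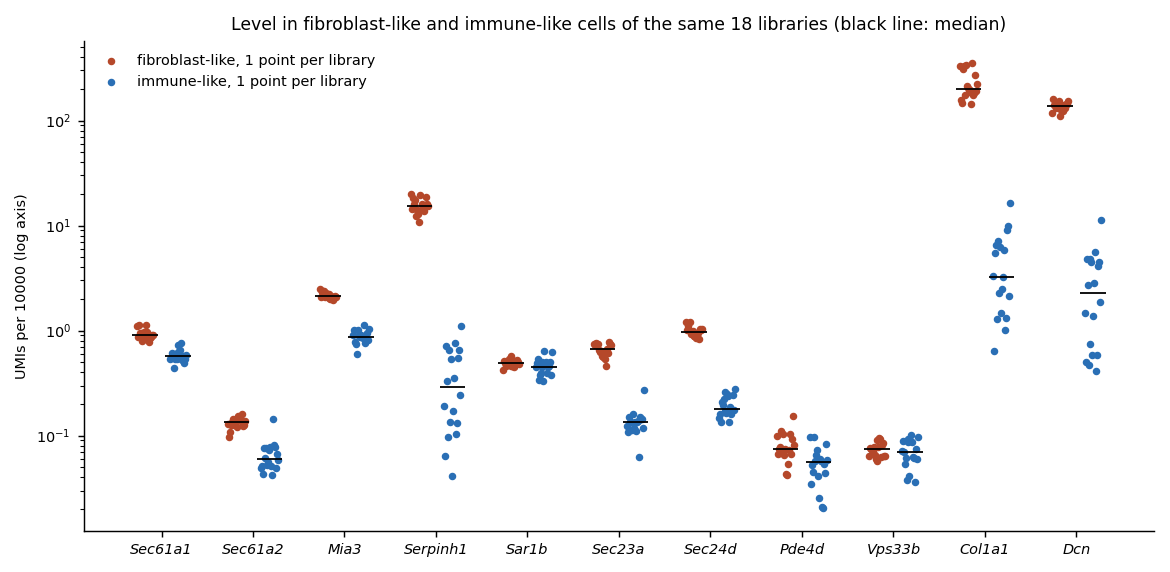
UMIs per 10000 (y axis, log scale) in fibroblast-like (red) and immune-like (blue) cells of the 18 libraries, with the median as a black line, for the 9 genes and for Col1a1 and Dcn. The groups do not overlap for Sec61a1, Mia3, Serpinh1, Sec23a and Sec24d, they overlap for the other 4 genes, and the immune values of Serpinh1 spread over the libraries as those of Col1a1 and Dcn do. The share of all genes without overlap is not given. By edgeR, 43.0% of all genes tested were lower and 40.5% higher in immune cells.

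Serpinh1 in fibroblasts had a lowest, median and highest level of 10.8, 15.5 and 19.97, and in immune cells of 0.0415, 0.288 and 1.10. The log2 difference was -5.65 ± 0.31 (jackknife SE, n = 18, edgeR adjusted p = 1.19e-14). Within a library the immune level was a median of 1.81% of the fibroblast level, and the same measure was between 1.48% and 1.81% for Col1a1, Col1a2, Col3a1, Dcn, Lum and Sparc, genes of the fibroblast. All of these, Serpinh1 included, were highest in ZT22 replicate 3, at 6.52% to 7.50%. There were 8.60 UMIs of Serpinh1 per 100 of Col1a1 in immune cells and 7.51 in fibroblasts. A UMI of Serpinh1 was found in 10.7% of immune cells and one of Col1a1 in 60.4%, at a median of 11722 UMIs per cell. With high doublet scores removed, the log2 difference was -6.64. Serpinh1 in immune cells thus stood to fibroblasts as other fibroblast genes did, and the source of its immune UMIs was not tested.

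Relative to fibroblasts, the coat subunits were higher in immune cells than Serpinh1 was. Sec23a had a lowest, median and highest level of 0.465, 0.666 and 0.788 in fibroblasts and of 0.0623, 0.135 and 0.271 in immune cells, and was lower in immune cells of all 18 libraries. Its log2 difference was -2.32 ± 0.09 (edgeR adjusted p = 8.26e-19), a fold of 4.99. Sec24d was at 0.829, 0.978 and 1.202 in fibroblasts and 0.134, 0.181 and 0.281 in immune cells, also lower in all 18, with a log2 difference of -2.36 ± 0.13 (adjusted p = 9.11e-18), a fold of 5.15. The immune level was a median of 19.2% of the fibroblast level for Sec23a and 19.8% for Sec24d. There were 3.88 UMIs of Sec24d per 100 of Col1a1 in immune cells and 0.464 in fibroblasts.

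Mia3 was at 1.94, 2.13 and 2.46 in fibroblasts and 0.596, 0.876 and 1.14 in immune cells, lower in all 18 libraries by 2.50-fold (log2 difference -1.32 ± 0.07, edgeR adjusted p = 1.67e-15). Sec61a2 was lower in all 18 by 2.16-fold (-1.11 ± 0.12) and Sec61a1 in all 18 by 1.63-fold (-0.70 ± 0.07). Pde4d was lower in 15 of 18 libraries (-0.51 ± 0.13, edgeR adjusted p = 0.000943), but differed by -0.07 with the 3 unnamed clusters among the immune cells (adjusted p = 0.605). Sar1b differed by -0.11 ± 0.08 on the log2 scale and was lower in 13 of 18 libraries (edgeR adjusted p = 0.0878). It passed by DESeq2 (adjusted p = 0.00837), without the filter on low counts (0.00235), without ZT14 replicate 1 (0.00839) and without ZT22 replicate 3 (0.0456). Vps33b differed by -0.06 ± 0.11 (edgeR adjusted p = 0.656), with 12 of 18 libraries lower.

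The paralogs of the coat genes did not follow 1 direction. Sec23b was higher in immune cells (log2 difference 0.46 ± 0.10, in 16 of 18 libraries, edgeR adjusted p = 6.22e-07), whereas Sec23a was lower. Sec24c was also higher (0.18 ± 0.08, edgeR adjusted p = 0.0164, but 0.0777 without ZT14 replicate 1) and Sec24a was lower by 1.45-fold in all 18. Sar1a was lower in all 18 by 2.65-fold. Mia2, the paralog of Mia3 that acts at the same exit sites, was higher in immune cells of all 18 libraries (0.99 ± 0.05, edgeR adjusted p = 2.66e-16). Pde4b, a phosphodiesterase of immune cells, was 5.46 ± 0.24 higher on the log2 scale.

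By list, 14 of 20 COPII and exit site genes were lower in immune cells and 4 higher, as were 15 and 3 of 20 ER folding genes. So were 14 and 2 of 20 translocation genes and 12 and 3 of 16 genes of ER to Golgi vesicles. Over all 11431 genes tested by edgeR, 43.0% were lower and 40.5% higher. The post-Golgi list went the other way, with 3 of 15 lower and 9 higher, Vps33a and Vipas39 among the higher ones. Of the 6 transcription factors, Creb3l1 (by 22.04-fold) and Creb3l2 were lower and 4 were higher. The immune level of Creb3l1 was a median of 4.44% of that in fibroblasts, beside the 1.48% to 1.81% of the fibroblast genes, and its highest value, 11.2%, was also that of ZT22 replicate 3. All 8 cargo genes were lower. Unlike the other lists, cargo was not left out of the clustering, and Col1a1, Col1a2 and Col3a1 were among the markers that named the fibroblasts. Their direction was thus partly set in advance.

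Between immune-like clusters the levels also varied. In the cluster led by Fcna, Cd209f and Lyve1, Mia3 was at 1.22 ± 0.0937 (SD over 15 libraries with at least 20 cells of the cluster) and in that led by Lyz1, Ear2 and Tnip3 at 0.547 ± 0.165 (n = 15). Pde4d was at 0.399 ± 0.127 (n = 5) in the cluster led by Gzma, Ccl5 and Nkg7, which are genes of cytotoxic lymphocytes. It was at 0.0171 ± 0.0216 (n = 15) in the Lyz1 cluster. The Pde4d means of the fibroblast-like clusters, 0.0448 to 0.179, lay below that of the Gzma cluster. Serpinh1 was at 0.0804 ± 0.02495 in the Lyve1 cluster, where Col1a1 was 1.06 ± 0.372, and at 0.913 ± 0.726 in the cluster led by Hmox1 and Ccl12, where Col1a1 was 12.4 ± 10.3. Differences between clusters were not tested.

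In muscle-like cells, which carried Acta1, Ckm and the other 3 muscle markers, Sar1b stood out. Its level was 4.87 ± 0.496, between 3.88 and 5.60, over the 12 libraries with at least 20 such cells, against 0.420 to 0.578 in fibroblasts. The paralog Sar1a was at 0.737 ± 0.0859 in muscle-like cells and 1.86 ± 0.214 in fibroblasts. Mia3 was at 0.0914 ± 0.0605 in muscle-like cells, and Sec24d at 0.0151 ± 0.0441 with 18 UMIs in all. Per 100 UMIs of Col1a1 there were 1.47 of Mia3 and 0.464 of Sec24d in muscle-like cells, against 1.02 and 0.464 in fibroblasts. Sec23a, with 195 UMIs in all, had 5.03 per 100 of Col1a1 there, against 0.3205 in fibroblasts. Sec24d thus stood at the fibroblast ratio there, and the source of its UMIs was not tested. In the 63 endothelial-like cells, Serpinh1 was at 6.87 (310 UMIs, 95% exact Poisson interval 6.12 to 7.68, counting error only). It had 33.2 UMIs per 100 of Col1a1 there, above the 7.51 in fibroblasts. Dct and Prlr were among the leading genes of these 63 cells beside endothelial genes. At a clustering resolution of 2, 27 cells were named endothelial, and 36 cells led by Dct and Prlr formed an unnamed cluster. The 63 cells may thus be a mixture, and which of them held the Serpinh1 UMIs was not tested. Muscle-like and endothelial-like values were not tested.

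**Figure D5:**
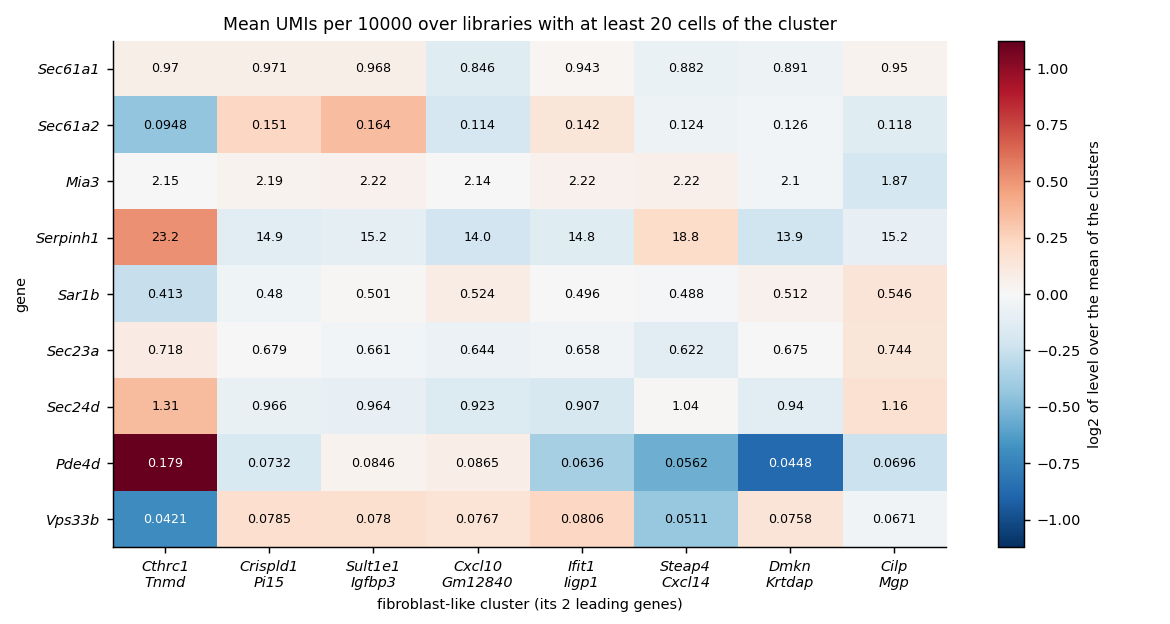
Mean UMIs per 10000 (printed number) of the 9 genes (rows) in the 8 fibroblast-like clusters (columns, named by their 2 leading genes) over libraries with at least 20 cells of the cluster; colour is the log2 ratio to the mean of the clusters. The Cthrc1 and Tnmd cluster is high for Serpinh1, Sec24d and Pde4d and low for Sec61a2 and Vps33b.

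Within fibroblasts the highest of the 8 cluster means was 1.15 times the lowest for Sec61a1, 1.19 times for Mia3, 1.196 times for Sec23a and 1.32 times for Sar1b. The cluster led by Cthrc1 and Tnmd differed most from the others. It held 855 cells and 3.102% to 17.4% of the fibroblasts of a library, with the lowest mean share at ZT14 (5.16% ± 2.85) and the highest at ZT10 (10.9% ± 5.66), and its Col1a1 level was 679 ± 167 (n = 13 libraries), against 155 to 273 in the other clusters. Serpinh1 was at 23.2 ± 3.101 there and at 13.9 to 18.8 in the others, and Sec24d at 1.31 ± 0.148 against 0.907 to 1.16. Pde4d was at 0.179 ± 0.0666 against 0.0448 to 0.0865 in the others, while Sec61a2, at 0.0948 ± 0.0253, and Vps33b, at 0.0421 ± 0.0232, were lowest there. Sec23a was at 0.718 ± 0.153, inside the range of the others, 0.622 to 0.744. These cluster differences are a description and were not tested. The share of this cluster overlapped between ZT10 and ZT14, and its part in the rhythm of Sec24d was not tested beyond the fit to the largest cluster alone, in which Sec24d passed.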

How the data were processed

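Single-cell 3′ libraries of dorsal dermis of 18 mice were used, and nothing but their count matrices. The authors used Cell Ranger 3.1.0 with the mm10 build for alignment and UMI counting, and deposited whole-number counts without normalization, 1 matrix per library. Mice were about 54 days old per the study's methods. Positions come from the GENCODE vM21 annotation of GRCm38, the same build, and promoters from RefSeq.

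The study's cell filter was applied, which keeps barcodes of 850 to 7800 genes whose mitochondrial share is below 13%. Counts were clustered (2000 variable genes without the 9 genes, the pathway lists apart from cargo, heat shock, dissociation and clock genes, 30 components, 15 neighbours, Leiden resolution 0.8, scanpy 1.11.5). A cluster took the class with the most detected markers (a UMI in 25% of its cells, 10% of the highest cluster's level, at least 3 markers) and stayed unnamed where other classes led its top 10 genes, or where none of its own markers was among them and its cells' median UMI count was below 33.3% of their library's. This scoring rule was revised once after clusters had been seen, and the rebuilt names can differ from those of the study. In this way 904 cells were left unnamed. Doublets were kept in the main setting, since Scrublet marked 71 cells. Between libraries, 36 barcodes were shared, none with the same profile.

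The UMIs of a cell type were added up in each library, and these sums were tested with edgeR 4.0.16 (quasi-likelihood test of the cosine and sine of a 24 h cycle, TMM, filterByExpr, Benjamini-Hochberg adjustment over all genes tested), with DESeq2 1.42.0 and JTK_Cycle (written anew, p not adjusted over genes) as alternatives. Levels and rhythms of the cell types were compared over 36 sums with the library as a block. Errors of amplitudes, peaks and log2 differences are jackknife SEs over libraries. The edgeR and JTK_Cycle tests were tried on simulated data, and the other steps were not. The replicate number is the day of collection in the labels and is not part of the main fit. Deviations of same-numbered libraries had a mean correlation of 0.0566 in fibroblasts and 0.0427 in immune cells, against -0.0276 and -0.0207 for other numbers. Counting error is the Poisson error of the UMIs.

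The 9 genes, the lists and the alternatives were chosen with earlier results of these data known. Named were the 9 genes, up to 4 genes with the smallest adjusted p under 0.05 in each pathway list, and for genes with a median of at least 100 UMIs per sum (all but Pde4d and Vps33b) the 3 genes with the highest Pearson correlation of log2 CPM. Paralogs, cargo, clusters and other cell types are described beside them.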

Additional observations from a re-analysis of the deposited data

How the results depend on the processing

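For the 9 genes, the count of 2 rhythmic genes in fibroblasts, of 0 in immune cells, of 0 with a different rhythm and of 7 with a lower level in immune cells was within 1.5 times under every alternative run, apart from the fit of the 6 times as a factor, which called 1 gene in fibroblasts, Sec23a. The members of the count differed in the largest fibroblast cluster alone, which called Sec24d and Sec61a2. With the 3 unnamed clusters added to the immune cells, the lower level count was 6, Pde4d being lost. Without 1 library at a time the counts were 2 to 3, 0 to 0, 0 to 0 and 7 to 8. With the replicate block, the count was 3 in fibroblasts, Mia3 being added, and 0 in immune cells, and the block changed no other call among the 9.

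Over all genes, 1897 were rhythmic in fibroblasts, 685 with fibroblasts thinned to immune depth, 877 in the largest cluster alone and 1215 with time as a factor (the cause was not tested, though the first 2 settings hold fewer UMIs), and 1382 to 1941 without 1 library. In immune cells 10 were rhythmic, 6 with time as a factor, 32 by DESeq2, 472 by JTK_Cycle without adjustment and 7 to 18 without 1 library, 18 without ZT2 replicate 3. The rhythm differed for 34 genes, for 55 without the filter, 96 by DESeq2 and 14 to 34 without 1 library. Lower in immune cells were 4911, 7451 without the filter, where more genes were tested, and 4798 to 5147 without 1 library. Of the 108 pathway genes, 21 were rhythmic in fibroblasts, 34 by DESeq2, 11 after thinning and 13 to 34 without 1 library. These last alternatives, DESeq2 and the block (27) apart, were chosen after seeing the data. The immune sums held medians of 10.5 UMIs for Pde4d, 12.5 for Sec61a2 and 15.5 for Vps33b. Fibroblasts thinned to the immune totals still gave 685 rhythmic genes, Sec23a and Sec24d among them. Thinning does not match the lower levels of these 2 genes in immune cells.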
